A study of Mus musculus with 12 samples.

Results

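Most Prss genes encode serine proteases of the trypsin and chymotrypsin fold, many of which are made in the testis and placed in the acrosome or on the surface of the sperm. Their abundance in total RNA and on polysomes was described here in round spermatids of mice with and without an intact copy of Igf2bp3. Members were taken by name, as every symbol of the deposited table that begins with Prss and a digit, without Prss37 and without pseudogene symbols. This gave 28 of 28643 symbols, of which 27 are annotated as protein-coding and 1, Prss23os, is annotated as a noncoding gene antisense to Prss23. The rule uses the names and no measured value, although it was set with earlier results of these data known. All 28 matched the GENCODE M21 annotation of GRCm38, on 10 chromosomes, and 11 further annotated Prss symbols were not analysed here.

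A trypsin-like protease is made as an inactive precursor and cuts proteins with a serine that works together with a histidine and an aspartate. In the male germ line the best known members act around fertilization. Acrosin (Acr) digests the acrosomal matrix, Prss21 (testisin) is held on the sperm membrane by a lipid anchor, and Prss55 is needed for sperm to migrate through the uterotubal junction. Round spermatids, the haploid cells that build the acrosome, transcribe many genes ahead of use, and part of their mRNA waits outside polysomes until later steps of sperm formation. Igf2bp3 is a cytoplasmic RNA-binding protein, so its loss raises the question of whether such mRNAs differ in amount or in loading on ribosomes.

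The control mice were Igf2bp3+/- and the knockout mice Igf2bp3-/-, all males aged 8 weeks, with the frameshift allele made by Cas9 on the C57BL/6 background. The study selected knockout males with impaired fertility, so the group stands for affected animals. Round spermatids of both groups were sorted by flow cytometry in cycloheximide, which holds ribosomes on mRNA, and each extract was divided. RNA-seq measured the total input, and RNC-seq (sequencing of mRNA in ribosome nascent-chain complexes) measured mRNA from polysomes with at least 4 ribosomes. There were 3 replicates of each genotype in each assay, 12 libraries in all. Values are FPKM, a read density per transcript length and library size, so levels of different genes can be set side by side, while the read depth behind them is unknown.

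In the RNA-seq libraries Igf2bp3 stood between 33.4 and 38.6 FPKM in Igf2bp3+/- and between 31.4 and 32.5 FPKM in Igf2bp3-/-, and since a frameshift need not remove the transcript, this does not check the labels. The 8 round spermatid markers summed to 1203 to 1333 FPKM in the Igf2bp3+/- and 1477 to 1653 FPKM in the Igf2bp3-/- RNA-seq libraries, with none at 0. Leydig markers summed to 15.4 to 22.6 FPKM and to 48.6 to 55.04 FPKM in the same groups. The sums of Sertoli markers (3.45 to 4.32 against 7.13 to 7.95 FPKM), peritubular markers (1.62 to 1.89 against 4.51 to 5.92 FPKM) and macrophage and blood markers (8.24 to 9.98 against 16.6 to 19.1 FPKM) were also low and higher in the knockout libraries. The Sertoli sum followed mostly Clu (means of 3.12 and 6.69 FPKM) and the peritubular sum Dcn (0.871 and 3.88 FPKM). Rhox5 (0.203 and 0.130 FPKM) and Myh11 (0.221 and 0.161 FPKM) in these lists went the other way. Spermatocyte (317 to 334 against 313 to 372 FPKM), spermatogonial (7.37 to 10.3 against 7.52 to 9.60 FPKM), elongating spermatid (8646 to 11039 against 9614 to 9806 FPKM) and mast cell markers (0.666 to 0.901 against 0.698 to 0.950 FPKM, with Mcpt4 at 0 in every library) overlapped between genotypes. The transcript CT010467.1 took 5.68% to 19.4% of the summed FPKM of a library, with the highest shares in Igf2bp3+/- RNC-seq. A value in FPKM therefore depends on that share.

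The coding sequences show what many of the members share. The members were taken by symbol, so a common fold is not given for each of them. The active-site serine of trypsin-like enzymes follows a glycine and an aspartate and is followed by a pair of glycines. The coding strand was therefore searched in frame for GGNGANNNNGGNGGN, which spells glycine, aspartate or glutamate, any residue, glycine and glycine. Of the 27 coding members, 18 held the pattern, against 2.58% of 21630 annotated coding genes. The middle codon was a serine codon in 16 members, against 0.786% of all coding genes. The 9 windows of 27 bases below, from GRCm38 in GENCODE M21 transcripts, were chosen from the 18 as examples. They show the acrosomal pair Prss39 and Prss40, testisin, the matching genes of the chromosome 9 cluster and of chromosome 14, and Prss48. Capitals mark the middle codon, and a span longer than 27 bases includes an intron.
Prss39, chr1:34502191-34502644, plus strand: tgccgaggagacTCTgggggccccctg
Prss40, chr1:34552789-34555974, minus strand: tgcgcaggagatTCTgggggccccctt
Prss21, chr17:23872520-23872815, plus strand: tgctttggtgacTCGggaggacccttg
Prss42, chr9:110800966-110803015, plus strand: tgccagggagatTCTggaggcccgatg
Prss44, chr9:110816566-110817109, plus strand: tgccagggagatTCTgggggccccctg
Prss45, chr9:110840545-110840865, plus strand: tgctatggagacCCCggggggccattg
Prss48, chr3:85994060-85997217, minus strand: tgcaagggcgatTCTggagggcctctg
Prss52, chr14:64112619-64113487, plus strand: tgccagggcgacAGTggaggagctctc
Prss55, chr14:64075774-64077086, minus strand: tgccagggtgacAGTgggggaccgctt
In these windows a serine codon of the TCN kind or AGT stands in the middle, except in Prss45, which has the proline codon CCC there. Prss35 matched the pattern with AAT in the middle. The other 9 coding members, Prss16, Prss23, Prss38, Prss43, Prss46, Prss50, Prss51, Prss54 and Prss58, held no match, which says only that these letters are not in their coding sequence.

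Most proteases of the germ-cell list were among the abundant members, and the list was set with earlier results of these data known. Of the 28 members, 19 reached a mean of at least 1 FPKM over the 12 libraries, and these included 14 of the 15 proteases listed as germ-cell proteases. The other 5 were Prss23os, Prss38, Prss47, Prss48 and Prss56. Levels did not divide by the list. In Igf2bp3+/- RNA-seq the mean of Prss56 (17.8 FPKM) lay above those of Prss43 (10.6 FPKM), Prss44 (10.0 FPKM) and Prss41 (4.08 FPKM). The division was clear, since the lowest of the 19 had a mean of 4.21 FPKM and the highest of the remaining 9 a mean of 0.883 FPKM. All members together made up 0.188% to 0.234% of the summed FPKM of a library, and Prss39, Prss21, Prss46, Prss54 and Prss58 held 64.1% to 70.0% of that share.

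**Figure D1:**
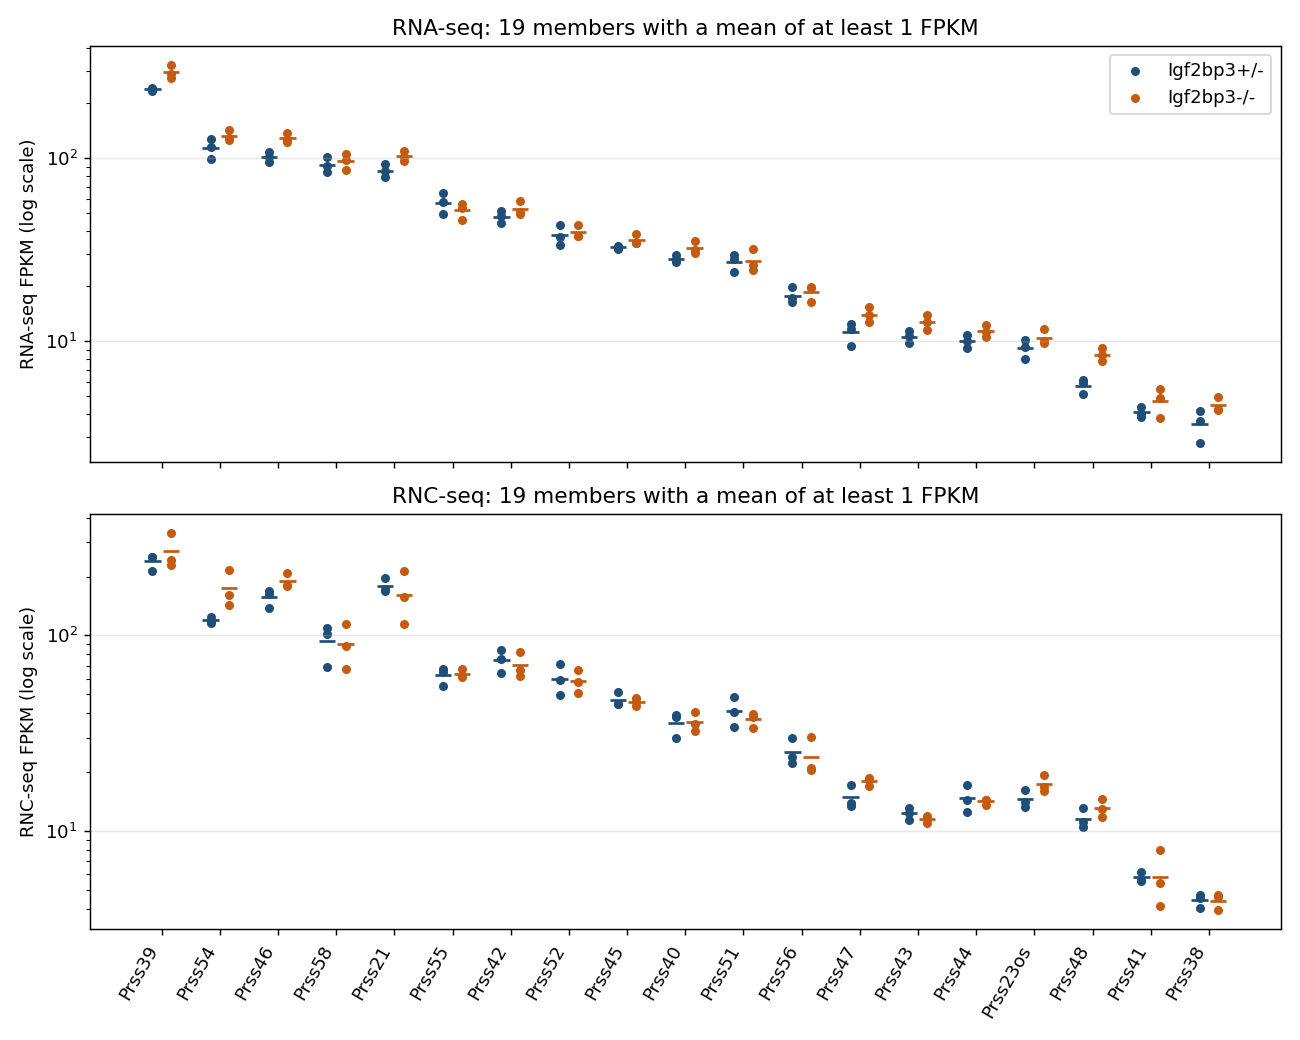
FPKM of the 19 members with a mean of at least 1, on a log axis, in RNA-seq (top) and RNC-seq (bottom). Each point is a library, each bar the mean of 3 libraries, blue for Igf2bp3+/- and orange for Igf2bp3-/-, and members are ordered by their mean in Igf2bp3+/- RNA-seq from Prss39 (239 FPKM) to Prss38 (3.54 FPKM).

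Prss39, the acrosomal trypsin-like protease also called TESP1, was the most abundant member. It stood at 241, 243 and 234 FPKM in the Igf2bp3+/- and at 277, 291 and 325 FPKM in the Igf2bp3-/- RNA-seq libraries, and ranked 267 among all symbols by its mean of 239 ± 4.77 FPKM (SD, n = 3) in Igf2bp3+/-. Prss40 (TESP2), its neighbour on chromosome 1, stood at 28.1, 29.6 and 27.3 FPKM in Igf2bp3+/- and 30.2, 31.7 and 35.4 FPKM in Igf2bp3-/-. Every library of Prss39 lay far above every library of Prss40. Cfc1, which overlaps 13.7% of the exonic bases of Prss40 on the other strand, was between 0.131 and 0.265 FPKM in RNA-seq.

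Below Prss39 came 4 members near 100 FPKM whose libraries overlapped from each to the next. Prss54, a relative of plasma kallikrein, stood at 116, 128 and 98.9 FPKM in the Igf2bp3+/- RNA-seq libraries. Prss46 stood at 109, 102 and 95.7 FPKM. Prss58, which is a trypsin-like protein, stood at 90.4, 102 and 83.9 FPKM. Prss21, testisin, stood at 84.9, 92.9 and 78.8 FPKM. The order of these 4 means (114, 102, 92.1 and 85.6 FPKM) is not resolved between neighbours, while all lay below every library of Prss39 and above every library of Prss55. In the Igf2bp3-/- RNA-seq libraries Prss54 stood at 142, 129 and 126 FPKM, Prss46 at 122, 126 and 138 FPKM, Prss58 at 86.3, 98.5 and 105 FPKM and Prss21 at 96.8, 102 and 109.6 FPKM.

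Prss55, Prss51 and Prss52 lie side by side on chromosome 14. Prss55, a sperm protease anchored in the membrane, stood at 49.8, 64.4 and 57.5 FPKM in Igf2bp3+/- and 53.6, 56.2 and 46.2 FPKM in Igf2bp3-/- RNA-seq. Prss52 stood at 37.05, 42.99 and 33.7 FPKM and 37.8, 37.7 and 43.4 FPKM in the same groups, and Prss51 at 29.5, 28.2 and 23.99 FPKM and 26.00, 24.4 and 31.8 FPKM. In each of the 3 genes the libraries of the genotypes overlapped. In Igf2bp3+/- the libraries of Prss55, Prss52 and Prss51 did not overlap with each other, although Prss55 overlapped with Prss42 and Prss51 with Prss40.

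The largest cluster was on chromosome 9, where Prss42, Prss44, Prss43, Prss45, Prss46 and Prss50 follow each other on the plus strand within 66.5 kb, from Prss42 (chr9:110798166-110803754) to Prss50 (chr9:110857967-110864629). Several of these have been described as testis-specific serine proteases. In Igf2bp3+/- RNA-seq Prss42 stood at 51.4, 48.2 and 44.6 FPKM, Prss45 at 32.01, 32.5 and 33.3 FPKM, Prss43 at 10.6, 11.3 and 9.77 FPKM and Prss44 at 9.20, 10.8 and 10.04 FPKM. With Prss46 at a mean of 102 ± 6.64 FPKM and Prss50 at 0.686 ± 0.137 FPKM (SD, n = 3), neighbours with a shared orientation differed widely in level. Prss46 and Prss50, the highest and the lowest of the cluster, are adjacent. Prss50 (TSP50), in which a threonine takes the place of the active-site serine, was the single germ-cell protease with a mean under 1 FPKM, at 0.791, 0.530 and 0.735 FPKM in Igf2bp3+/- and 0.345, 0.576 and 0.684 FPKM in Igf2bp3-/- RNA-seq. In the Igf2bp3-/- RNA-seq libraries Prss42 stood at 49.7, 51.2 and 58.5 FPKM, Prss45 at 34.6, 34.3 and 38.4 FPKM, Prss43 at 11.5, 12.7 and 13.9 FPKM and Prss44 at 10.6, 11.2 and 12.3 FPKM.

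**Figure D2:**
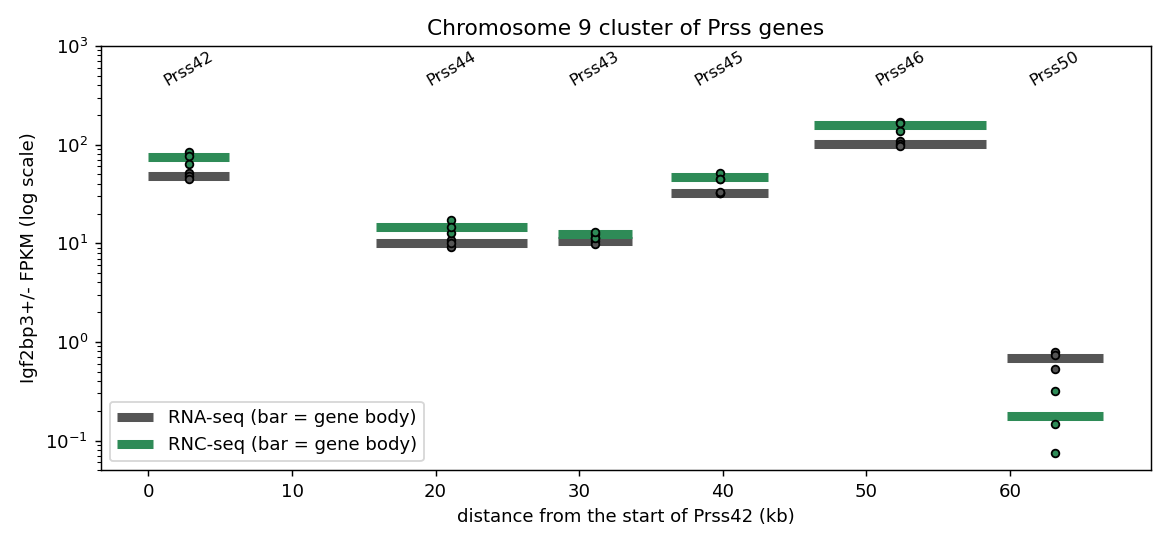
Levels of the 6 Prss genes of the chromosome 9 cluster in Igf2bp3+/- round spermatids, with distance from the start of Prss42 in kb on the x axis and FPKM on a log y axis. Thick bars span each gene at its mean and points are the 3 libraries (grey RNA-seq, green RNC-seq). Prss46 has the highest level, with a mean of 102 FPKM in RNA-seq and 157 FPKM in RNC-seq, and Prss50 is the single gene whose RNC-seq mean (0.179 FPKM) lies under its RNA-seq mean (0.686 FPKM).

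Prss41, the remaining germ-cell protease, lies on chromosome 17 near Prss21 and was far lower, at 3.84, 4.01 and 4.39 FPKM in Igf2bp3+/- and 4.89, 3.82 and 5.48 FPKM in Igf2bp3-/- RNA-seq, with 2.23% of its exonic bases under Prss32 on the other strand. Outside the germ-cell list, Prss56, a protease known from the eye, stood at 19.8, 17.2 and 16.3 FPKM in Igf2bp3+/- and 16.4, 19.7 and 19.9 FPKM in Igf2bp3-/-. Prss47 stood at 11.7, 12.5 and 9.40 FPKM and 13.8, 12.7 and 15.3 FPKM. The Igf2bp3+/- libraries of these 3 genes did not overlap with each other, with Prss56 highest and Prss41 lowest.

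Prss48 stood at 5.89, 6.11 and 5.13 FPKM in Igf2bp3+/- and 8.38, 7.79 and 9.13 FPKM in Igf2bp3-/- RNA-seq. Prss38 stood at 2.79, 3.68 and 4.14 FPKM and 4.23, 4.98 and 4.26 FPKM, with 13.1% of its exonic bases under Gm15755 on the other strand. The noncoding Prss23os stood at 9.32, 10.1 and 8.01 FPKM and 10.1, 9.73 and 11.6 FPKM. It shares 54.3% of its exonic bases with Prss23 on the opposite strand, and whether strand was used in the quantification is not stated, so reads of this pair cannot be told apart.

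The remaining 9 members have their known roles outside the spermatid, Prss50 apart. They comprised the pancreatic trypsinogen Prss2, prostasin (Prss8), neurotrypsin (Prss12), the thymus-specific Prss16, the secreted Prss23 and its relative Prss35, and the multi-domain Prss36 and Prss53. Means over the 12 libraries ran from 0.0252 FPKM for Prss16 to 0.883 FPKM for Prss53, and 6 members, Prss2, Prss8, Prss12, Prss16, Prss36 and Prss50, were listed at 0 in at least 1 library. Prss53 is uncertain in any case, because 76.7% of its exonic bases are shared with Gm21974 on the same strand and a further 7.31% lie under Zfp646, a gene at 109 to 152 FPKM in RNA-seq. No member of the leukocyte, mast cell and uterine list was in the table analysed.

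Polysome loading was measured as the log2 difference between RNC-seq and RNA-seq within a genotype, on log2(FPKM + 0.1), which understates differences of low genes. It was tested with limma over all 18414 genes with a mean above 0.1 FPKM in both assays, and p-values were adjusted over all of them with a limit of 0.05. This included 23 of the 28 members, and Prss2, Prss8, Prss12, Prss16 and Prss35 were too low to be tested. Prss23 passed the filter only through the third Igf2bp3-/- RNA-seq library (0.491 FPKM), and without that library it was not tested. Testisin, Prss48, Prss52 and most of the chromosome 9 cluster were higher in FPKM in polysomal than in total RNA of the control. Prss50 was lower, and the most abundant member, Prss39, had a difference near 0. Libraries were not brought to one summed FPKM before this comparison. The members summed to 880 to 991 FPKM in Igf2bp3+/- RNA-seq and to 1090 to 1315 FPKM in Igf2bp3+/- RNC-seq. Their shares of the library were 0.191% to 0.206% and 0.188% to 0.211%, so a difference of 0 is not an equal share. In Igf2bp3+/- 13 of the 23 were called, where 43.8% of all genes tested were. Of these 12 were higher in RNC-seq, where 18.6% of all genes were called higher, and 1 was lower, where 25.2% of all genes were called lower. Every RNC-seq library lay above every RNA-seq library in 15 members, beside 22.7% of all genes, and below in 1, beside 32.9%. The members' median difference was 0.50, beside a median of -0.10 over all genes, and 21 of 23 members against 45% of all genes lay above 0. By role, the calls in Igf2bp3+/- were 7 higher and 1 lower of 15 germ-cell proteases, 1 higher of 1 epithelial or secreted protease tested, 1 of 3 multi-domain, thymic or neural proteases tested and 3 of 4 other members.

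**Figure D3:**
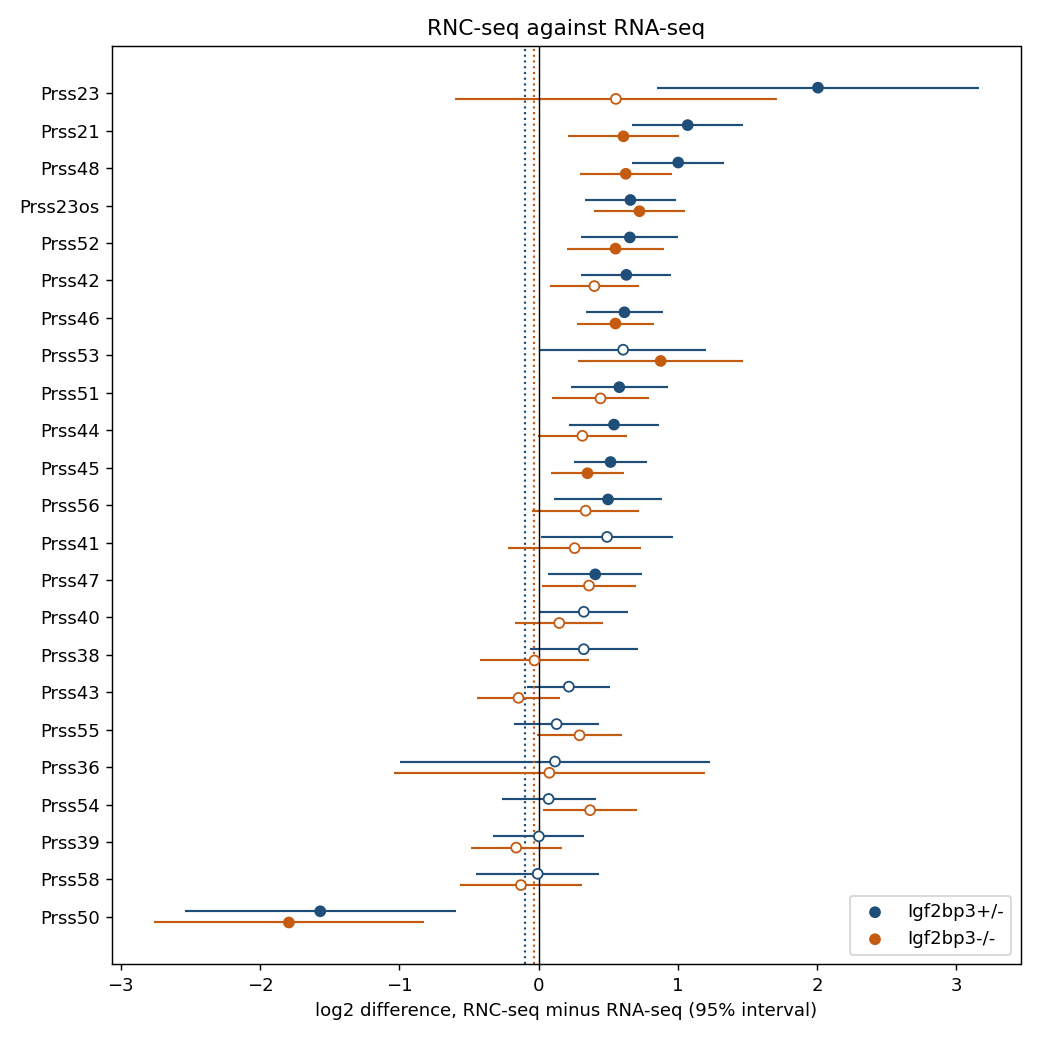
Log2 difference between RNC-seq and RNA-seq (x axis) of the 23 members tested, in Igf2bp3+/- (blue) and Igf2bp3-/- (orange). Points are limma estimates with 95% intervals, filled where the adjusted p is under 0.05, and dotted lines are the medians of all genes (-0.10 and -0.04). Prss21, Prss48, Prss23os, Prss52, Prss46 and Prss45 are filled to the right in both genotypes and Prss50 to the left, while the open points of Prss39 and Prss58 lie near 0, and with quantile normalization Prss39 was called lower in both genotypes.

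Prss21 and Prss48 had the largest differences in Igf2bp3+/- among the members with a mean of at least 1 FPKM. In Igf2bp3-/- Prss23os had the largest one among these (0.72). Prss21 stood at 196, 169.6 and 173 FPKM in the Igf2bp3+/- RNC-seq libraries, a log2 difference of 1.07 ± 0.19 (SE, limma adjusted p = 0.0005). Prss48, related to an epidermal serine protease, stood at 13.1, 11.1 and 10.5 FPKM, a log2 difference of 1.00 ± 0.15 (limma adjusted p = 0.0002). In both genes every RNC-seq library lay above every RNA-seq library of the genotype. In Igf2bp3-/- Prss21 stood at 213, 114 and 158 FPKM in RNC-seq, with a log2 difference of 0.61 ± 0.19 (limma adjusted p = 0.027), and Prss48 stood at 12.95, 11.8 and 14.5 FPKM, with a log2 difference of 0.63 ± 0.15 (limma adjusted p = 0.0091). The Prss21 call in Igf2bp3-/- was lost in 6 of 16 alternatives.

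In the chromosome 9 cluster 4 of 6 genes were called higher in polysomal RNA of the control, beside 18.6% of all genes, and 1 lower, beside 25.2%. Prss46 stood at 169, 138 and 164 FPKM in the Igf2bp3+/- RNC-seq libraries (log2 difference 0.62 ± 0.13), Prss42 at 83.8, 64.1 and 76.2 FPKM (0.63 ± 0.15), Prss44 at 17.1, 12.6 and 14.5 FPKM (0.54 ± 0.15) and Prss45 at 51.6, 44.5 and 44.4 FPKM (0.52 ± 0.12), with limma adjusted p-values between 0.0018 and 0.0098. Each of these genes had all 3 RNC-seq libraries above all 3 RNA-seq libraries. Prss43 stood at 12.4, 11.4 and 13.1 FPKM, just above its RNA-seq libraries, and its log2 difference of 0.22 ± 0.14 did not pass the limit (limma adjusted p = 0.22). Prss50 went the other way, at 0.0755, 0.316 and 0.147 FPKM, with a log2 difference of -1.57 ± 0.45 (limma adjusted p = 0.013), and its call rests on values below 1 FPKM. That call was lost with a pseudocount of 0.01 and without the first Igf2bp3+/- RNC-seq library. With CT010467.1 left out and every library brought to the same summed FPKM, Prss44 and Prss45 missed the limit, while Prss42 and Prss46 passed it.

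The same genes in the knockout gave values that were mostly smaller. In Igf2bp3-/- RNC-seq Prss46 stood at 208, 181 and 179 FPKM (log2 difference 0.55 ± 0.13, limma adjusted p = 0.0073) and Prss45 at 43.5, 45.7 and 47.8 FPKM (0.35 ± 0.12, limma adjusted p = 0.049). The Prss45 call was lost in 10 of 16 alternatives, among them each left-out Igf2bp3-/- library and the replicate block (limma adjusted p = 0.12). Prss42 stood at 82.7, 62.1 and 66.8 FPKM and Prss44 at 13.6, 14.4 and 14.4 FPKM, and their log2 differences of 0.40 and 0.31 did not pass the limit (limma adjusted p = 0.063 and 0.14). Prss43 stood at 11.5, 11.9 and 10.99 FPKM, overlapping its RNA-seq libraries, with a log2 difference of -0.14 ± 0.14. Prss50 stood at 0, 0.246 and 0.0639 FPKM and was again lower in polysomal RNA, by a log2 difference of -1.79 ± 0.45 (limma adjusted p = 0.011).

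On chromosome 14 the 3 neighbours differed. Prss52 stood at 71.3, 49.8 and 59.2 FPKM in Igf2bp3+/- RNC-seq (log2 difference 0.65 ± 0.16, limma adjusted p = 0.0052) and Prss51 at 48.3, 33.9 and 40.8 FPKM (0.58 ± 0.16, limma adjusted p = 0.011). Prss55 stood at 67.1, 55.02 and 65.3 FPKM, overlapping its RNA-seq libraries, with a log2 difference of 0.13 and an interval from -0.18 to 0.43. In Igf2bp3-/- RNC-seq Prss52 stood at 57.6, 50.98 and 66.4 FPKM and was called higher (0.55 ± 0.16, limma adjusted p = 0.023), a call lost in 4 of 16 alternatives. Prss51 at 38.05, 33.7 and 39.7 FPKM and Prss55 at 61.8, 61.5 and 67.6 FPKM did not pass the limit there, with log2 differences of 0.44 and 0.29.

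Of the 5 members of highest mean level in Igf2bp3+/- RNA-seq, Prss46 and Prss21 were called in both genotypes and Prss39, Prss54 and Prss58 in neither. Prss39 stood at 252, 215 and 253 FPKM in Igf2bp3+/- RNC-seq and 336, 242 and 230.4 FPKM in Igf2bp3-/- RNC-seq, with log2 differences of 0.00 (95% interval -0.32 to 0.33) and -0.16 (-0.49 to 0.17). Prss58 stood at 101, 68.7 and 109.6 FPKM and 114, 67.5 and 88.7 FPKM, with log2 differences of -0.01 and -0.13. Both sets of libraries overlapped with RNA-seq. Prss54 stood at 124, 116 and 119 FPKM in Igf2bp3+/- RNC-seq, with a log2 difference of 0.07 (-0.27 to 0.41), and at 144, 217 and 161 FPKM in Igf2bp3-/-, with a log2 difference of 0.37 (0.03 to 0.71, limma adjusted p = 0.099). Prss40, the chromosome 1 neighbour of Prss39, stood at 39.1, 29.8 and 38.2 FPKM and 40.7, 32.4 and 35.2 FPKM, with log2 differences of 0.32 and 0.15 that did not pass the limit.

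Among the other members, Prss23os stood at 16.1, 14.1 and 13.2 FPKM in Igf2bp3+/- RNC-seq and 16.1, 16.7 and 19.2 FPKM in Igf2bp3-/- RNC-seq. It was called higher in polysomal RNA in both genotypes, by 0.66 ± 0.15 (limma adjusted p = 0.0033) and 0.72 ± 0.15 (limma adjusted p = 0.0040), although it is annotated as noncoding. Its antisense partner Prss23 was at 0.178, 0.0648 and 0.0617 FPKM in Igf2bp3+/- RNA-seq and at 0.633, 0.770 and 0.652 FPKM in RNC-seq, a log2 difference of 2.01 ± 0.54 (limma adjusted p = 0.0085) on values below 1 FPKM. With a pseudocount of 1 that difference was 0.61 and with one of 0.01 it was 2.79. Reads over bases that Prss23 and Prss23os share cannot be told apart. In Igf2bp3-/- Prss23 was at 0.0643, 0.0809 and 0.491 FPKM in RNA-seq and 0.628, 0.323 and 0.0805 FPKM in RNC-seq, with a log2 difference of 0.55 ± 0.54 that did not pass the limit.

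Prss56 stood at 23.96, 29.7 and 22.2 FPKM in Igf2bp3+/- RNC-seq (log2 difference 0.50 ± 0.18, limma adjusted p = 0.036) and Prss47 at 17.2, 13.4 and 13.97 FPKM (0.41 ± 0.16, limma adjusted p = 0.049). The Prss47 call was lost in 9 of 16 alternatives and the Prss56 call in 7, and with the replicate number as a block the limma adjusted p-values were 0.084 and 0.059. In Igf2bp3-/- RNC-seq they stood at 30.2, 20.4 and 21.02 FPKM and 18.2, 18.6 and 16.9 FPKM, with log2 differences of 0.34 and 0.36 that did not pass the limit. In both genes and both genotypes every RNC-seq library lay above every RNA-seq library. Prss41 stood at 6.16, 5.61 and 5.54 FPKM and 8.01, 5.38 and 4.10 FPKM and Prss38 at 4.01, 4.53 and 4.68 FPKM and 3.91, 4.58 and 4.70 FPKM in the 2 groups, without a call. Prss53, uncertain as above, was called higher in Igf2bp3-/- (0.88 ± 0.28, limma adjusted p = 0.032), a call lost in 7 of 15 alternatives, among them the replicate block (limma adjusted p = 0.053). In Igf2bp3+/- it had a log2 difference of 0.61, with an interval from 0.01 to 1.201, that passed the limit in 3 of 15 alternatives.

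In Igf2bp3-/- 8 of 23 members were called, where 26.5% of all genes were, 7 of them higher, where 12.5% of all genes were, and 1 lower, where 14% of all genes were. The libraries of the assays did not overlap in 14 members with higher RNC-seq values, beside 19.2% of all genes, and in 1 with lower values, beside 21.5%. The median difference of the members was 0.35, beside -0.04 over all genes, and 18 of 23 members against 47.8% of all genes lay above 0. The calls there were 4 higher and 1 lower of 15 germ-cell proteases, 0 of 1 epithelial or secreted protease tested, 1 of 3 multi-domain, thymic or neural proteases tested and 2 of 4 other members. Without the first Igf2bp3+/- RNC-seq library the count in Igf2bp3+/- was 8 in place of 13, while the share of all genes called went from 43.8% to 33.8%. Without the first or second Igf2bp3-/- RNA-seq or the third Igf2bp3-/- RNC-seq library the count in Igf2bp3-/- was 4 in place of 8, while the share of all genes called went from 26.5% to 17.1%, 16.8% and 17.7%. With the replicate number as a block the counts were 11 and 6, and the shares of all genes called were 42.6% and 26.4%. Another scaling moved the counts as well, in which CT010467.1 was left out and every library was then brought to one summed FPKM. The members were then 8 higher and 1 lower in Igf2bp3+/- and 3 higher and 3 lower in Igf2bp3-/-. Of all calls 29.3% and 26.6% were higher, in place of 42.4% and 47.1%. Prss21, Prss42, Prss46, Prss48, Prss52 and Prss23os passed the limit under each of 16 alternatives in Igf2bp3+/-, and Prss46, Prss48 and Prss23os in Igf2bp3-/-. Prss23 in Igf2bp3+/- and Prss50 in Igf2bp3-/- passed it in each of the 15 alternatives that tested them. The filter at a mean above 1 FPKM removed both. The alternatives in Igf2bp3+/- left out no Igf2bp3-/- library, so they did not try the loss of the library through which Prss23 passed the filter.

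The genotype comparison asked whether the loss of Igf2bp3 altered these transcripts. No member passed the limit in total RNA, in polysomal RNA or in their ratio. In RNA-seq 0 of 24 members tested were called, where 0.256% of 20352 genes were (0.197% higher and 0.059% lower in Igf2bp3-/-). At an unadjusted limma p under 0.05 there were 7 members higher in Igf2bp3-/-, beside 10.4% of all genes, and 0 lower, beside 5.32%. The median log2 difference of the members was 0.21 and that of all genes 0.05, and 22 of 24 members against 56.2% of all genes lay above 0. In 10 members, beside 14.1% of all genes, every Igf2bp3-/- RNA-seq library was above every Igf2bp3+/- library, and in 0 members, beside 8.68% of all genes, below. In sorted cells measured in bulk, more cells of a stage and more RNA per cell cannot be told apart. Round spermatid markers moved with these values (8 of 8 above 0, none called), as did Leydig markers (7 of 7 above 0, 4 called). So did spermatocyte markers (6 of 6 above 0, none called) and macrophage and blood markers (8 of 8, 2 called). Sertoli and peritubular markers lay above 0 in 3 of 4 each, with 1 called in each list. Spermatogonial markers did in 2 of 5 and elongating spermatid markers in 2 of 7, with none called. The part of these cells in the values was not tested.

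**Figure D4:**
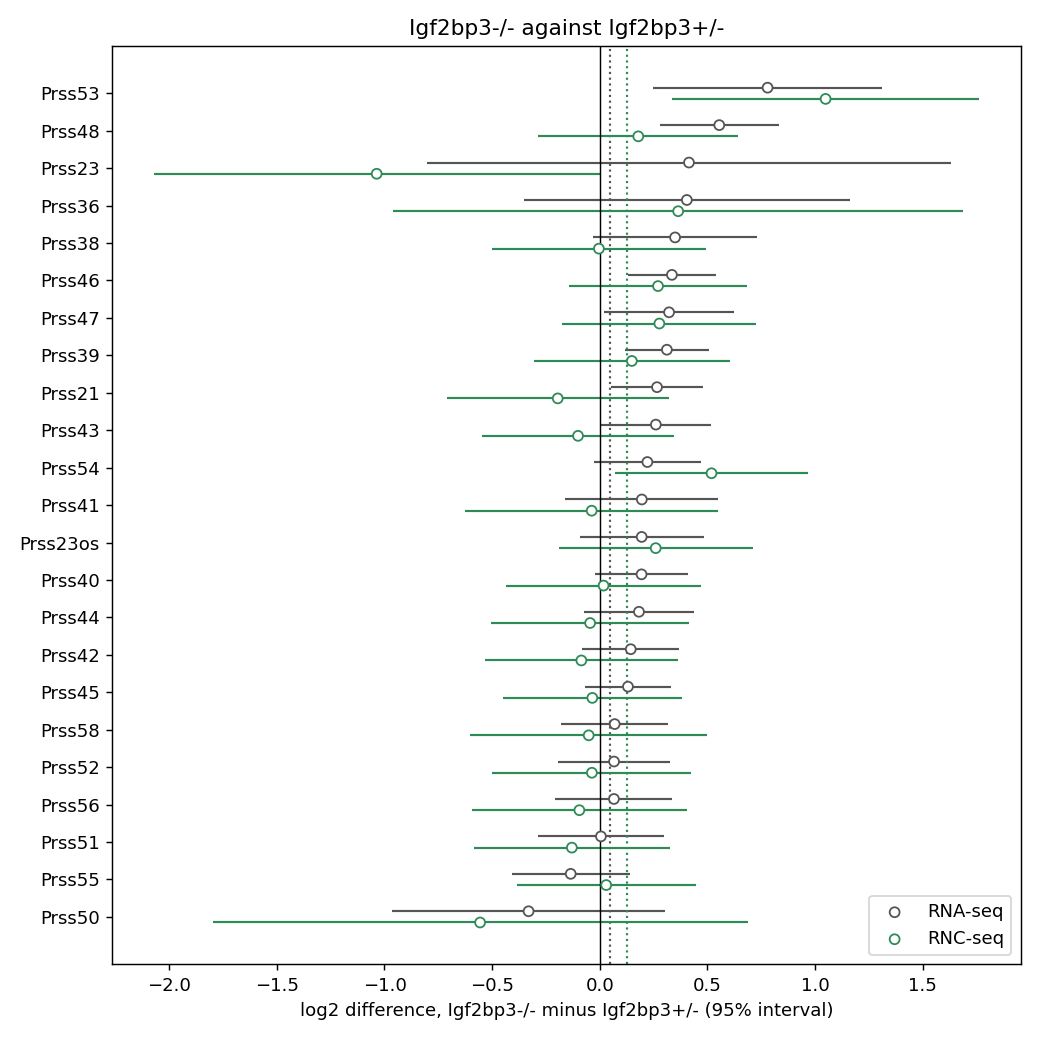
Log2 difference between Igf2bp3-/- and Igf2bp3+/- (x axis) of 23 members in RNA-seq (grey) and RNC-seq (green), with 95% intervals from limma and dotted lines at the medians of all genes (0.05 and 0.13). All points are open because none passed the adjusted limit of 0.05. In RNA-seq Prss53, Prss48, Prss46, Prss39, Prss47, Prss21 and Prss43 lie to the right with intervals above 0, and Prss55 and Prss50 lie to the left. In RNC-seq the intervals of Prss53 and Prss54 lie above 0.

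Prss48 had the lowest unadjusted p of the members in RNA-seq. Its libraries did not overlap, from 5.13 to 6.11 FPKM in Igf2bp3+/- and from 7.79 to 9.13 FPKM in Igf2bp3-/-, and its log2 difference was 0.56 ± 0.12 (limma adjusted p = 0.15). Prss46 had a log2 difference of 0.34 ± 0.09 (limma adjusted p = 0.18) and Prss39 one of 0.31 ± 0.09 (limma adjusted p = 0.19). In Prss39 all 3 knockout libraries, from 277 FPKM upwards, lay above the highest control library of 243 FPKM. Prss21 (0.27), Prss47 (0.32), Prss43 (0.26) and Prss53 (0.78) were the other members with an unadjusted p under 0.05, and their adjusted p-values in limma lay between 0.21 and 0.32. On the other side stood Prss55 with a log2 difference of -0.13 (95% interval -0.41 to 0.14) and Prss50 with -0.33 (-0.96 to 0.30).

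In RNC-seq the values of the members lay on both sides of 0. None of 24 members tested were called, where 0.115% of 19051 genes were (0.0787% higher and 0.0367% lower). Of the 24 members, 10 lay above 0 against 65.3% of all genes, with a median of -0.04 beside 0.13 for all genes. Markers in RNC-seq lay above 0 in 8 of 8 round spermatid, 6 of 7 elongating spermatid and 7 of 7 Leydig genes (1 called). The same held for 7 of 7 macrophage and blood, 3 of 3 Sertoli and 2 of 2 peritubular markers. Spermatocyte markers did so in 3 of 6 and spermatogonial markers in 3 of 5. At an unadjusted limma p under 0.05 there were 2 members higher, Prss53 and Prss54, beside 5.36% of all genes, and 0 lower, beside 1.12%. Prss54 had 116 to 124 FPKM in Igf2bp3+/- and 144 to 217 FPKM in Igf2bp3-/-, without overlap, and a log2 difference of 0.52 ± 0.21 (limma adjusted p = 0.75). Prss53 was at 0.548, 0.802 and 0.756 FPKM and 2.26, 1.16 and 1.39 FPKM, a log2 difference of 1.05 ± 0.33 (limma adjusted p = 0.64). Prss23, from 0.633 to 0.770 FPKM in Igf2bp3+/- and from 0.0805 to 0.628 FPKM in Igf2bp3-/-, had a log2 difference of -1.04 ± 0.47 (limma adjusted p = 0.77). Libraries without overlap were found in Prss53, Prss54 and Prss46, higher in the knockout, beside 9.44% of all genes, and in Prss23, lower, beside 1.85%.

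Prss21 shows how wide the polysomal values were within the knockout. Its RNC-seq libraries ran from 114 to 213 FPKM in Igf2bp3-/- and from 170 to 196 FPKM in Igf2bp3+/-, so that the knockout libraries lay on both sides of the control libraries. The interval of its log2 difference, from -0.71 to 0.32, allows a value on either side of 0. Prss39 gave an interval from -0.31 to 0.60 in RNC-seq and Prss58 one from -0.60 to 0.50.

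Translational efficiency (TE), the ratio of RNC-seq to RNA-seq, was compared between genotypes as the interaction of genotype and assay over the 12 libraries. It uses the same libraries as the comparisons above and is no independent evidence. None of 23 members tested were called, where 0.00543% of 18414 genes were, and 0 had an unadjusted limma p under 0.05, beside 5.54% of all genes higher and 1.58% lower. The members' median log2 difference was -0.16, beside 0.06 for all genes, and 4 of 23 lay above 0 against 55.6% of all genes. Those 4 were Prss54 (0.30, 95% interval -0.18 to 0.78), Prss53 (0.27), Prss55 (0.16) and Prss23os (0.07).

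On the other side Prss21 had a log2 TE difference of -0.46 ± 0.26 (limma adjusted p = 0.72), Prss48 one of -0.38 ± 0.22 and Prss43 one of -0.36 ± 0.20. Prss23 had the lowest value, -1.45 ± 0.76, on levels below 1 FPKM. For Prss21 the interval ran from -1.02 to 0.10, and for Prss46 from -0.46 to 0.33. The calls of polysome loading made within each genotype are not a test of this difference.

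Other serine proteases were read beside the family. Among them Hpn, Tmprss2 and Klk1 were low, with means of 0.266, 0.0876 and 2.04 FPKM in Igf2bp3+/- RNA-seq. Of the 6 listed (Acr, Tmprss12, Pcsk4, Hpn, Tmprss2 and Klk1), 0 were called between genotypes in RNA-seq, RNC-seq or TE, beside 0.256%, 0.115% and 0.00543% of all genes. In each genotype 2 of the 6 were higher in RNC-seq than in RNA-seq, beside 18.6% of all genes in Igf2bp3+/- and 12.5% in Igf2bp3-/-. Acr, acrosin itself, stood at 196, 221 and 186 FPKM in Igf2bp3+/- and 278, 285 and 307 FPKM in Igf2bp3-/- RNA-seq, without overlap, and its log2 difference of 0.53 did not pass the limit (limma adjusted p = 0.096). In RNC-seq it stood at 181, 186 and 199 FPKM and 263, 385 and 234 FPKM, with log2 differences from RNA-seq of -0.09 and -0.01 that did not pass the limit. Tmprss12, a membrane protease of sperm, was higher in RNC-seq by 1.19 in Igf2bp3+/- and 0.98 in Igf2bp3-/- (limma adjusted p = 8.6e-05 and 0.00086). Klk1, tissue kallikrein, was higher by 0.79 and 1.38 (limma adjusted p = 0.0061 and 0.00048).

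The acrosin partner Acrbp and serine protease inhibitors formed a list of 15, of which 11 were in the table and 8 passed the filter on low values. Spink2, an acrosomal Kazal inhibitor, was the most abundant, at 753, 772 and 587 FPKM in Igf2bp3+/- RNA-seq and 2422, 2024 and 1821 FPKM in RNC-seq. It was higher in polysomal RNA by 1.57 in Igf2bp3+/- and 1.203 in Igf2bp3-/- (limma adjusted p = 1.8e-05 and 0.00034). Spint2, a membrane Kunitz inhibitor, was higher by 1.16 and 0.84 (limma adjusted p = 0.00015 and 0.0030). Acrbp stood between 374 and 447 FPKM in Igf2bp3+/- RNA-seq and its polysomal difference of -0.10 did not pass the limit.

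In Igf2bp3+/- the list gave 3 of 8 higher and 1 lower in RNC-seq, beside 18.6% and 25.2% of all genes, with Spint5 (0.82) and Serpina5 (-1.26) called at levels near or below 1 FPKM. In Igf2bp3-/- it gave 2 higher and 2 lower, beside 12.5% and 14% of all genes, the latter being Spint1 (-0.76) and Serping1 (-1.29). Between genotypes 1 of 8 was called in RNA-seq, beside 0.256% of all genes, and 0 in RNC-seq and TE. This was Serping1, the C1 inhibitor, at 0.970, 1.68 and 1.37 FPKM in Igf2bp3+/- and 3.37, 3.71 and 3.64 FPKM in Igf2bp3-/- (log2 difference 1.38, limma adjusted p = 0.039). The summed Leydig, Sertoli, peritubular and macrophage and blood markers were higher in the same libraries, and their part in this value was not tested.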

How the data were processed

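The authors trimmed reads with Trim Galore 0.6.6, aligned them to GRCm38 with HISAT2 and deposited FPKM from StringTie 2.1.7, by gene symbol, for 12 libraries of sorted round spermatids. The annotation release, the use of strand and the read depth are not given in the sources used here. The labels name a directional kit on an Illumina instrument, and the methods a full-length method on another instrument. Of 28668 symbols, 25 that had become dates were left out (0.0995% of summed FPKM). Columns named WT are Igf2bp3+/- by the labels.

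log2(FPKM + 0.1) was fitted with limma 3.58.1 in R 4.3.3 with an intensity trend, two-sided, among genes with a mean above 0.1 FPKM, and a call needed a Benjamini-Hochberg adjusted p under 0.05. Genotype was fitted in the 6 libraries of each assay. TE and RNC-seq against RNA-seq were fitted over all 12. The script was tested on simulated data. Named genes were members with a mean of at least 1 FPKM or a call between genotypes, described with their values, and others where a list held them. The members and lists were chosen with earlier results of these data known. Lists covered 6 role groups of members, other serine proteases, inhibitors with Acrbp, and markers of 9 cell types. Copies were sought with BLAST 2.17.0 (at least 95% identity over 50% of the transcript), which found Prss53 with Gm21974 and Prss23os with Prss23. Alternatives changed the pseudocount, filter, scaling, trend, weights, block and libraries. The labels call the samples replicates, and p-values measure the spread between them.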

Additional observations from a re-analysis of the deposited data

How the results depend on the processing

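No member was called between genotypes in RNA-seq, RNC-seq or TE under any of 17, 17 and 22 alternatives, where calls over all genes ranged from 4 to 84, 0 to 48 and 0 to 2 (52, 22 and 1 as reported). Leaving out 1 library at a time gave 8 to 13 members called in RNC-seq against RNA-seq in Igf2bp3+/-, beside 13 as reported, and 4 to 9 in Igf2bp3-/-, beside 8. The shares of all genes called in these fits were 33.8% to 42.4% and 16.8% to 34%, beside 43.8% and 26.5%. Without the first Igf2bp3+/- RNC-seq library Prss44, Prss47, Prss50, Prss51 and Prss56 missed the limit. Single members missed it in 23 fits in Igf2bp3+/- and 27 in Igf2bp3-/- and newly passed it in 12 and 15, and no called difference turned its direction. Centring, quantile normalization and rescaling without CT010467.1 moved the median of all genes by 0.17, 0.14 and -0.20 in Igf2bp3+/-, and the members' median stayed 0.60, 0.47 and 0.58 above it (0.60 as reported). In Igf2bp3-/- they stayed 0.39, 0.28 and 0.36 above it (0.39 as reported). The shares of calls over all genes that were higher were 56.6% and 51.4% after centring and quantile normalization in Igf2bp3+/-, beside 42.4%. Between genotypes those scalings moved the median of all genes by over 0.1 in RNC-seq (-0.12, -0.14 and -0.11), by -0.13 in TE after centring and by -0.11 in RNA-seq after rescaling, where the members' RNA-seq median was 0.09 and that of all genes -0.07. The share of genotype calls that were higher went from 76.9% to 63.5% in RNA-seq after rescaling and from 68.2% to 46.2%, 41.7% and 53.3% in RNC-seq. Prss39 was called lower with quantile normalization in both genotypes and, with Prss43, after rescaling in Igf2bp3-/-. Between the assays, libraries of one number deviated from their group means with correlations of -0.105 to 0.262, over 0.1 in 4 of 6 pairs. The study divided each extract between the assays, but no label ties a number in one assay to the other, so the pairing was not established. With a block for each genotype and number across the assays, the members called were 11 in Igf2bp3+/-, 6 in Igf2bp3-/- and 0 in TE, where calls over all genes in TE were 0. For the genotype fits within an assay the block joined control and knockout libraries of 1 number, which no label ties together. There 0 members were called, and calls over all genes were 4 in RNA-seq and 31 in RNC-seq. Correlations of these pairs were -0.117 to 0.255, over 0.1 in 1 of 6. The count of 19 members with a mean of at least 1 FPKM was also 19 in Igf2bp3+/- RNA-seq alone. Depth is unknown, so members below 1 FPKM are the least certain.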
